A study of Arabidopsis thaliana with 6 samples.

Results

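Cytochrome P450 genes were taken as the nuclear genes whose product description in the deposited table contains the words cytochrome P450, and they were grouped by the CYP family number in their names. Of 234 genes with these words, 17 chosen genes of the glucosinolate, camalexin, brassinosteroid, carotenoid, flavonoid and abscisic acid pathways were left out. This left 217 of the 24193 genes listed. Other genes of these pathways, such as CYP707A3, CYP90D1 and CYP97A3, stayed in the set. Of the 217, 193 carry a CYP number from 38 families, 14 are named as P450 proteins without a number, and 10 match the words although the product named first is another one, for example the P450 reductase ATR1. The members were picked by description and not by any measured value, but this choice was made with earlier results of these data known. The data come from whole Arabidopsis thaliana seedlings, 3 libraries of lon1-1 and 3 of wt, the wild type Col-0, labelled A, B and C in each genotype. Both groups grew in darkness for 6 days on vertical plates, and total RNA was depleted of ribosomal RNA before stranded sequencing. LON1 is a protease of the mitochondrial matrix, lon1-1 is a mutant of its gene, and each group is 1 line with no further treatment. Expression is given in FPKM, the number of sequenced fragments divided by transcript length and by the library's mapped total.

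Cytochrome P450s are haem enzymes that insert an oxygen atom into a substrate, and plants hold one of the largest sets of them known. Most sit in the membrane of the endoplasmic reticulum and receive electrons from NADPH through a P450 reductase, and in some reactions through cytochrome b5. They act in the synthesis of sterols, lignin, cutin, suberin and hormones, in the removal of hormones, and in the making of defence compounds that differ from species to species.

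Titles of the samples give the genotype, whereas the genotype field reads Col-0 in all 6 libraries. LON1 itself was listed at 2.67, 2.61 and 2.79 FPKM in lon1-1 A, B and C, against 4.69, 4.70 and 4.69 FPKM in wt A, B and C, so the groups did not overlap. Depth, read from the spacing of low values, came to about 34250000 to 35250000 fragments in lon1-1 libraries and 32250000 to 33000000 in wt libraries. At that depth, 1 FPKM in a transcript of 1500 bases stands for 45.2 to 46.5 fragments in lon1-1 libraries and 42.6 to 43.6 in wt libraries. The labels do not say whether the letters mark separately grown material, so the p-values measure only the spread between these libraries, which may be technical. Markers of root and of shoot were both present, and PLT1, PLT2, WOX5, CUC2, SPCH, MUTE and FAMA were too low to test. Of 15 root markers, 12 could be tested, and 7 were higher and 3 lower in lon1-1, with a summed level of 334.5 to 358.6 FPKM in lon1-1 and 419.9 to 452.8 FPKM in wt. The 7 that rose are all root hair genes, which summed to 112.0 to 121.0 FPKM in lon1-1 and 54.8 to 57.8 FPKM in wt. The other 8 root markers summed to 222.5 to 238.2 FPKM in lon1-1 and 365.0 to 396.5 FPKM in wt, and without CASP1 to 78.7 to 79.9 FPKM in lon1-1 and 106.3 to 112.3 FPKM in wt. Of 9 shoot markers, 5 could be tested, and 3 were higher and 2 lower, with a summed level of 735.6 to 817.5 FPKM in lon1-1 and 643.1 to 666.3 FPKM in wt. Among the shoot markers, the epidermis gene PDF1 rose most, to 313.3 ± 39.9 FPKM in lon1-1, against 184.4 ± 9.53 FPKM in wt, and PORA, of chlorophyll synthesis in darkness, fell most, to 101.6 ± 0.290 FPKM in lon1-1, against 181.2 ± 3.62 FPKM in wt. No marker of either list was at 0 in all libraries of a group. The part of these tissue markers in the P450 results was not tested, and in bulk RNA a change in the number of cells of a type and a change in RNA per cell cannot be told apart.

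In lon1-1, P450 transcripts moved in both directions and more of them fell than rose. Of the 217 genes, 131 reached 1 FPKM in at least 3 libraries and were tested, and 107 of these changed (limma, adjusted p under 0.05), which is 81.7% against 77.0% of all 18308 genes tested and so close to the background. The number that rose was 46, or 35.1% against 44.7% of all tested genes, and the number that fell was 61, or 46.6% against 32.3%. Their median log2 fold change, lon1-1 minus wt on the log2(FPKM + 1) scale, was -0.06, against 0.08 over all tested genes. Changes of at least 2-fold on that scale were found for 16 genes that rose, 12.2% against 4.07% of all tested genes, and for 12 that fell, 9.16% against 4.76%. The median size of the change without regard to direction was 0.46 in P450 genes and 0.33 over all tested genes. These shares describe the lists and carry no test. Tested against a fold of 1.5 with limma's treat, 19 P450 genes were higher and 17 lower, so that the order of the counts was the opposite one. To be tested, 8 genes reached 1 FPKM in lon1-1 libraries alone and 9 in wt libraries alone, so these had to differ and the counts include them. Without the 10 genes named first as another product, the other 207 summed to 2372 ± 14.6 FPKM in lon1-1 and 2142 ± 29.6 FPKM in wt (SD, n = 3 each). CYP705A5 and CYP708A2, which rose, were then left out after their values were seen. The rest summed to 1845 ± 9.15 FPKM in lon1-1 and 1912 ± 23.5 FPKM in wt. No gene that fell was left out to match, so this order depends on the genes chosen.

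Counts by family were as follows. The largest, CYP71, had 14 genes that fell and 6 that rose among 21 tested, CYP705 had 9 that fell and 5 that rose among 19, and CYP81 had 6 that fell and 5 that rose among 13. All 5 tested CYP706 genes fell, with a median log2 fold change of -0.74. In CYP86, the family of fatty acid omega-hydroxylases, 5 of 6 tested genes fell and none rose, and in CYP94, which holds the jasmonate-oxidising enzymes, 3 of 5 fell and none rose. In CYP72, 5 of 7 fell and 2 rose. The CYP96 family had 3 that rose and 2 that fell among 7, but CYP96A8 and CYP96A11, which rose, reached 1 FPKM in lon1-1 libraries alone. CYP71A14 and CYP81F1, which also rose, reached it in lon1-1 libraries alone too. Among the falling genes, CYP705A20, CYP706A5, CYP81H1, CYP86B1, CYP86C2, CYP72A8, CYP71B20 and CYP71B35 reached it in wt libraries alone. These counts over few genes stand beside 44.7% of all tested genes that rose and 32.3% that fell, and no difference between families was tested.

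**Figure D1:**
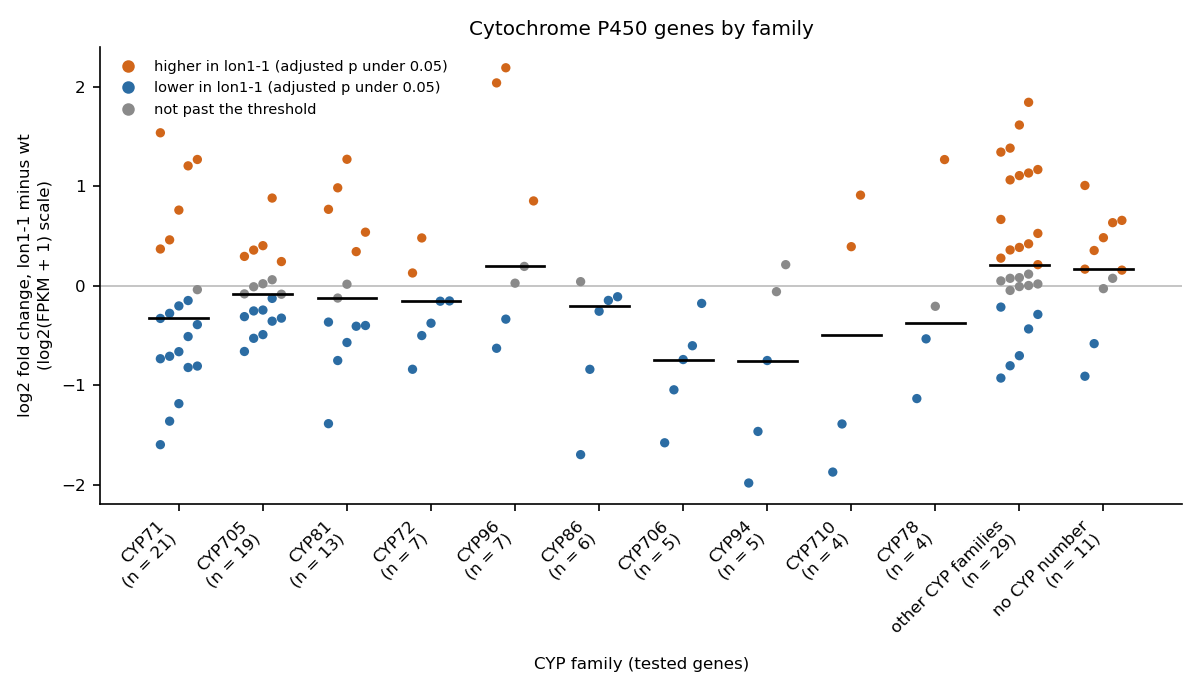
Log2 fold change (lon1-1 minus wt, log2(FPKM + 1) scale) of the 131 tested cytochrome P450 genes, 1 point a gene, by CYP family, with the family median as a black line. All 5 CYP706 genes lie below 0, CYP96 holds the 2 highest points, and CYP710 is split into 2 genes above and 2 below 0. Of these, CYP706A5 was tested only through its wt level, and CYP96A11 and CYP710A3 only through their lon1-1 levels.

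The electron partners of P450s, which are not P450s themselves, are described next. Of 11 genes, 7 rose and 1 fell, which is 63.6% and 9.09%, beside 44.7% and 32.3% of all tested genes. The 8 that changed are fewer, as a share, than the 77.0% of all tested genes that changed. No test was made of these shares. ATR1, the first NADPH-P450 reductase, averaged 121.4 ± 0.540 FPKM in lon1-1 and 108.0 ± 1.96 FPKM in wt (log2 fold change 0.17, limma adjusted p = 0.000392). ATR2, the second reductase, named like CB5-D and CB5-E after its values were seen, averaged 127.6 ± 2.33 FPKM in lon1-1 and 111.4 ± 1.78 FPKM in wt (log2 fold change 0.19, limma adjusted p = 0.00019). The largest rise was that of CB5-B, a cytochrome b5, at 15.1 ± 0.976 FPKM in lon1-1 and 9.22 ± 0.655 FPKM in wt (log2 fold change 0.66). Only CBR, the NADH-cytochrome b5 reductase, fell, with 122.8 ± 1.06 FPKM in lon1-1 and 130.0 ± 1.11 FPKM in wt (log2 fold change -0.08, limma adjusted p = 0.0206). The abundant cytochromes b5 CB5-D and CB5-E had 215.3 ± 8.48 and 332.8 ± 21.9 FPKM in lon1-1, against 207.8 ± 1.59 and 315.7 ± 11.8 FPKM in wt, and did not pass the threshold.

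Sterol P450s divided within a single family. The CYP710A enzymes are C-22 sterol desaturases, which convert sitosterol to stigmasterol or form brassicasterol, and CYP51G1 is the sterol 14-demethylase that acts earlier in the pathway. All 5 genes changed, 3 upward and 2 downward, beside 77.0% of all tested genes that changed. Of the 3, CYP710A3 reached 1 FPKM in lon1-1 libraries alone, so its being tested depended on the high lon1-1 level. The upstream regions of the 4 CYP710A genes are shown because CYP710A1 and CYP710A2, which are neighbours, fell, whereas CYP710A3 and CYP710A4, neighbours elsewhere on the same chromosome, rose. Each line holds the 300 bases before the annotated gene start, read 5′ to 3′ on the minus strand of the gene from TAIR10.1 (RefSeq), and capitals mark any G-box (CACGTG) or W-box (TTGACC or TTGACT, on either strand). The windows lie at chr2:14541618-14541917 for CYP710A1, chr2:14537557-14537856 for CYP710A2, chr2:12385052-12385351 for CYP710A3 and chr2:12389892-12390191 for CYP710A4.
CYP710A1: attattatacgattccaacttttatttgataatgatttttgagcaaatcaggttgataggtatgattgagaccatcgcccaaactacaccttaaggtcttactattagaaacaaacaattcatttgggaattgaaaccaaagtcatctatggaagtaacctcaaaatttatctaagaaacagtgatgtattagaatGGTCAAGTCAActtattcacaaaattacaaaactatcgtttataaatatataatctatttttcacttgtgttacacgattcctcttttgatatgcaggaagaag
CYP710A2: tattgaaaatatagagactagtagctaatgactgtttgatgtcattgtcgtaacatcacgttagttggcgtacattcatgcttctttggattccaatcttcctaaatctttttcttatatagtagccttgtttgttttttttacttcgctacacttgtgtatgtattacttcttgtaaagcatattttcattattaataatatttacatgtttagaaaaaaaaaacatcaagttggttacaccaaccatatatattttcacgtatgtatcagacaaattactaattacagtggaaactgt
CYP710A3: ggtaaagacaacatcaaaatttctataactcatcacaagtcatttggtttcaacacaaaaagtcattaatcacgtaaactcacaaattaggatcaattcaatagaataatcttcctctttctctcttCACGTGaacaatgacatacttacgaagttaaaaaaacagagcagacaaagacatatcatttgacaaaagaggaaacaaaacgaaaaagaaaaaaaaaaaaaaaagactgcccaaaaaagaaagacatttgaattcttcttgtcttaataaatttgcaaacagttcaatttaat
CYP710A4: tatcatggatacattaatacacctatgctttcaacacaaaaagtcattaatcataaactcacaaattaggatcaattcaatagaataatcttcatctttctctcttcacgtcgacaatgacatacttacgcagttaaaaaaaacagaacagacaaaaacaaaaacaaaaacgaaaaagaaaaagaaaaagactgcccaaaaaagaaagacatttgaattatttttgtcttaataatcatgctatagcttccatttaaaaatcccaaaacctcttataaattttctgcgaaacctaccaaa
Over the 300 bases, 78.3% of the CYP710A3 window aligned to identical bases in the CYP710A4 window, while other pairs among the 4 shared 54.7% to 61.7%. The CYP710A1 window holds 2 overlapping W-boxes, which start 104 and 99 bases before the gene start, the CYP710A3 window holds a G-box 173 bases before it, and the other windows hold neither motif.

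CYP710A1, at chr2:14539373-14541617, had 30.43, 32.42 and 29.31 FPKM in lon1-1 A, B and C, against 81.84, 78.81 and 85.06 FPKM in wt A, B and C. Every lon1-1 library lay far below every wt library, a 2.67-fold fall of the mean (log2 fold change -1.39 ± 0.04 SE, limma adjusted p = 2.80e-09). CYP710A2, at chr2:14535506-14537556, had 7.60, 8.11 and 7.61 FPKM in lon1-1, against 31.42, 29.62 and 32.17 FPKM in wt. Its groups were as clearly apart, with a mean 4.0-fold lower in lon1-1 (log2 fold change -1.87 ± 0.05 SE, limma adjusted p = 5.16e-10). CYP710A4, at chr2:12388168-12389891, went the other way, with 58.04, 57.14 and 53.66 FPKM in lon1-1 and 42.04, 40.59 and 45.25 FPKM in wt. Here all lon1-1 libraries were the higher ones, by 1.32-fold in the mean (log2 fold change 0.39 ± 0.05 SE, limma adjusted p = 2.96e-05). CYP710A3, at chr2:12383480-12385051, was low in both groups, with 1.36, 1.64 and 1.62 FPKM in lon1-1 and 0.39, 0.21 and 0.46 FPKM in wt. Its groups did not overlap either (log2 fold change 0.91 ± 0.09 SE, limma adjusted p = 9.34e-06), but the coding sequences of CYP710A3 and CYP710A4 are 95.8% identical, so reads of the abundant CYP710A4 could have been assigned in part to CYP710A3. Summed over the family, CYP710 transcripts came to 96.3 ± 3.68 FPKM in lon1-1 and 156.0 ± 6.86 FPKM in wt. CYP51G1 had 101.08, 98.40 and 97.26 FPKM in lon1-1, against 75.84, 71.54 and 73.36 FPKM in wt, and it rose with no overlap (log2 fold change 0.42 ± 0.03 SE, limma adjusted p = 1.45e-06).

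P450s of terpenoid synthesis held the gene that was most abundant of the set in lon1-1. Arabidopsis roots make the triterpenes thalianol and marneral from genes that sit side by side in clusters, and 3 of the P450s in these clusters rose together with values far apart between the groups. CYP705A5, which desaturates a thalianol derivative and lies at chr5:19434758-19436749, had 319.19, 316.18 and 320.18 FPKM in lon1-1, against 178.30, 171.88 and 167.25 FPKM in wt. The lon1-1 libraries agreed closely and were all above the wt libraries (1.85-fold, log2 fold change 0.88 ± 0.03 SE, limma adjusted p = 7.37e-09). CYP708A2, the thalianol hydroxylase at chr5:19444103-19447866, had 212.05, 202.69 and 211.62 FPKM in lon1-1, against 60.39, 57.20 and 54.92 FPKM in wt. It was the gene with the largest rise among those above 100 FPKM in lon1-1, at 3.63-fold (log2 fold change 1.84 ± 0.04 SE, limma adjusted p = 2.02e-10). CYP71A16, the marneral oxidase at chr5:17031024-17033800, had 92.59, 95.02 and 90.57 FPKM in lon1-1, against 40.28, 36.72 and 36.77 FPKM in wt. The groups were apart by more than their whole ranges (2.45-fold, log2 fold change 1.27 ± 0.04 SE, limma adjusted p = 3.46e-09). CYP705A12, which neighbours CYP71A16 at chr5:17023502-17025361, rose less, with 26.3 ± 0.634 FPKM in lon1-1 and 20.3 ± 0.829 FPKM in wt (log2 fold change 0.36). It was named after its values were seen.

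Other P450s of the terpenoid list fell or were near 0, while CYP716A1, a triterpene oxidase outside the list, rose and is given below. CYP705A1, which cleaves the triterpene arabidiol in roots to release a volatile homoterpene, had 30.86, 27.92 and 32.64 FPKM in lon1-1 and 42.22, 43.76 and 43.36 FPKM in wt. All lon1-1 libraries were below the wt libraries (log2 fold change -0.49 ± 0.05 SE, limma adjusted p = 1.36e-05). CYP76C1, which oxidises linalool in flowers, averaged 1.36 ± 0.0917 FPKM in lon1-1 and 3.13 ± 0.451 FPKM in wt, and it fell as well (log2 fold change -0.80). CYP82G1, which makes homoterpenes in leaves, was listed at 0 in all lon1-1 libraries and at 0.02 FPKM or less in wt. Of 5 tested members of the terpenoid list, 3 rose and 2 fell, beside 44.7% and 32.3% of all tested genes. The list summed to 643.1 to 656.5 FPKM in lon1-1 libraries and 305.0 to 324.3 FPKM in wt libraries. Several genes of the triterpene clusters are known from root tissue, and the root markers given above moved in both directions beside them. Their part in this result was not tested.

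**Figure D2:**
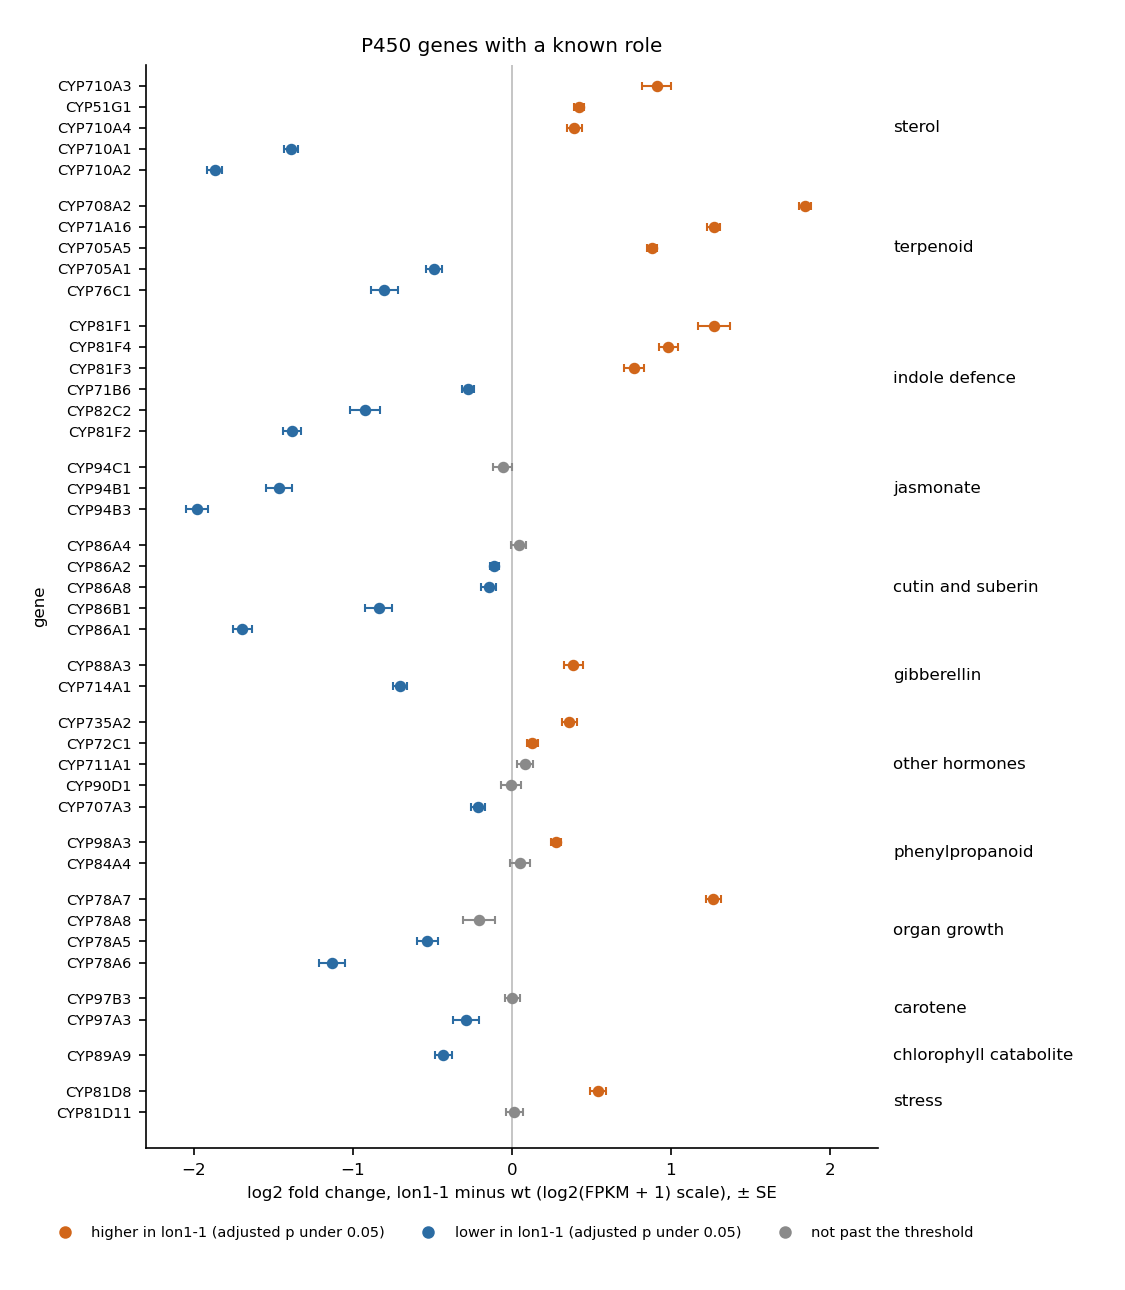
Log2 fold change with its SE (lon1-1 minus wt, log2(FPKM + 1) scale) of the tested P450 genes with a role list, 1 row a gene, grouped by role. The sterol, terpenoid and indole defence lists each hold genes on both sides of 0, whereas no jasmonate or cutin and suberin gene past the threshold lies above 0. CYP710A3 and CYP81F1 were tested only through their lon1-1 levels, and CYP82C2 and CYP86B1 only through their wt levels.

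P450s of indole defence split between the CYP81F genes. These enzymes hydroxylate the ring of indole glucosinolates, CYP81F2 at one carbon position and CYP81F4 at the nitrogen, before a methyl group is added. CYP81F2, at chr5:23187840-23189902, had 4.18, 4.62 and 4.14 FPKM in lon1-1, against 13.58, 12.30 and 12.73 FPKM in wt. Every lon1-1 value was well under the wt values, a 2.98-fold fall (log2 fold change -1.38 ± 0.06 SE, limma adjusted p = 1.76e-08). CYP81F4, at chr4:17590772-17592920, had 17.00, 17.14 and 17.66 FPKM in lon1-1, against 7.44, 8.98 and 8.34 FPKM in wt. It rose 2.09-fold with the groups apart (log2 fold change 0.98 ± 0.06 SE, limma adjusted p = 2.77e-07). CYP81F3, at chr4:17583992-17586442, averaged 9.31 ± 0.635 FPKM in lon1-1 and 5.05 ± 0.332 FPKM in wt and rose too (log2 fold change 0.77). CYP81F1, which the annotation lists under the symbol CYP91A2, had 3.00, 2.94 and 2.47 FPKM in lon1-1 and 0.61, 0.38 and 0.75 FPKM in wt. It was the most changed of the 4 in relative terms, 4.83-fold higher in lon1-1 (log2 fold change 1.27 ± 0.10 SE, limma adjusted p = 1.55e-06). Thus the 3 CYP81F genes that neighbour each other on chromosome 4 rose, and the one on chromosome 5 fell. Of the 3, CYP81F1 reached 1 FPKM in lon1-1 libraries alone, so its being tested depended on the high lon1-1 level.

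CYP82C2, which acts in the synthesis of an indole cyanogenic compound, had 0.46, 0.33 and 0.39 FPKM in lon1-1 and 2.01, 1.5 and 1.46 FPKM in wt. Its lon1-1 libraries were all below the wt libraries (log2 fold change -0.93 ± 0.09 SE, limma adjusted p = 9.50e-06). CYP71B6, which converts indole acetonitrile to indole carboxylic acid derivatives, averaged 44.6 ± 1.98 FPKM in lon1-1 and 54.2 ± 0.841 FPKM in wt (log2 fold change -0.28). CYP71A18, a relative of the camalexin enzymes CYP71A12 and CYP71A13, was too low to test, with 0.15, 0.10 and 0.06 FPKM in lon1-1 and 1.05, 0.82 and 0.55 FPKM in wt. Its groups nevertheless did not overlap. Among the 6 tested members of this list, 3 rose and 3 fell, beside 44.7% and 32.3% of all tested genes. These counts include CYP81F1, tested only through its lon1-1 level, and CYP82C2, tested only through its wt level.

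Jasmonate P450s fell or did not pass the threshold. CYP94B3 and CYP94B1 hydroxylate the active hormone jasmonoyl-isoleucine, and CYP94C1 oxidises the product further, steps that remove the hormone. CYP94B3 had 2.73, 2.21 and 2.31 FPKM in lon1-1, against 13.22, 11.92 and 12.23 FPKM in wt. The fall, 5.15-fold in the mean, had the most negative log2 fold change of all tested P450 genes (-1.98 ± 0.07 SE, limma adjusted p = 5.64e-09). CYP94B1 had 1.12, 0.90 and 0.93 FPKM in lon1-1, against 4.12, 4.26 and 5.03 FPKM in wt, again with no overlap (4.55-fold lower, log2 fold change -1.46 ± 0.08 SE, limma adjusted p = 1.39e-07). CYP94C1 had 5.31, 4.59 and 4.67 FPKM in lon1-1 and 4.97, 5.10 and 5.20 FPKM in wt, so its libraries overlapped (log2 fold change -0.06, limma adjusted p = 0.41). AOS, the allene oxide synthase, is a P450 of jasmonate synthesis that the description rule did not catch. It averaged 18.9 ± 0.554 FPKM in lon1-1 and 28.8 ± 0.473 FPKM in wt (log2 fold change -0.58, limma adjusted p = 3.16e-07). Of the other enzymes of jasmonate synthesis, 7 of 10 could be tested. Of these, 3 rose and 1 fell, beside 44.7% and 32.3% of all tested genes. LOX6, a lipoxygenase, rose to 37.9 ± 1.48 FPKM in lon1-1, against 20.9 ± 1.55 FPKM in wt, while LOX4, another lipoxygenase, fell to 2.16 ± 0.176 FPKM in lon1-1, against 8.42 ± 0.473 FPKM in wt.

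Among the P450s of cutin, suberin, wax and pollen wall synthesis, 4 of the 5 tested genes fell and none rose. Of all tested genes, 32.3% fell. CYP86B1, 1 of the 4, was tested only through its wt level. The treat test with its 1.5-fold limit called 2 genes of the list lower, and with no filter on low values 1 gene of the list was called higher. CYP86A1, a fatty acid omega-hydroxylase that makes root suberin monomers, had 2.08, 2.14 and 2.14 FPKM in lon1-1, against 9.68, 8.87 and 8.78 FPKM in wt. The lon1-1 libraries were nearly alike and all lay below the wt libraries (4.30-fold lower, log2 fold change -1.70 ± 0.06 SE, limma adjusted p = 4.31e-09). CYP86B1, which hydroxylates very-long-chain acids for suberin, had 0.35, 0.53 and 0.59 FPKM in lon1-1 and 1.67, 1.52 and 1.79 FPKM in wt, a fall with the groups apart (log2 fold change -0.84 ± 0.09 SE, limma adjusted p = 9.95e-06). The cutin enzyme CYP86A2 was second only to CYP705A5 in mean level among the 217 genes in lon1-1, at 246.88, 249.56 and 254.49 FPKM, against 265.78, 273.26 and 271.29 FPKM in wt. Its fall was small though the groups did not overlap (log2 fold change -0.11 ± 0.03 SE, limma adjusted p = 0.00696). CYP86A8, also known as LACERATA, averaged 19.6 ± 0.601 FPKM in lon1-1 and 21.75 ± 1.09 FPKM in wt (log2 fold change -0.15, limma adjusted p = 0.0134). That call rested on few libraries, since the adjusted p was 0.0533 without lon1-1 A and 0.0531 without wt C. CYP86A4, a cutin enzyme of flowers, had 12.5 ± 0.305 FPKM in lon1-1 and 12.15 ± 0.596 FPKM in wt and did not pass (limma adjusted p = 0.432). CYP77A4, CYP77A6, CYP86A7, CYP96A15 and CYP703A2 stayed under 0.5 FPKM in all libraries and were not tested. Among these, CYP86A7 had 0.07, 0.12 and 0.11 FPKM in lon1-1 and 0.05, 0.02 and 0.02 FPKM in wt, higher in every lon1-1 library.

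Other genes of cutin, suberin and wax went in both directions, 7 of 14 up and 7 down, beside 44.7% and 32.3% of all tested genes. CER1, which forms wax alkanes, rose to 133.0 ± 5.08 FPKM in lon1-1, against 45.3 ± 1.52 FPKM in wt (log2 fold change 1.53). GPAT5, an acyltransferase of suberin, fell to 0.790 ± 0.108 FPKM in lon1-1, against 3.03 ± 0.275 FPKM in wt (log2 fold change -1.17). Beside the fall of CYP86A1, the root endodermis gene CASP1 had 153.0 ± 8.12 FPKM in lon1-1 and 271.6 ± 13.1 FPKM in wt, and the root hair regulator RHD6 had 6.90 ± 0.352 FPKM in lon1-1 and 1.77 ± 0.312 FPKM in wt. Other endodermis genes did not pass the threshold, SCR with 13.6 ± 0.601 FPKM in lon1-1 and 14.4 ± 0.473 FPKM in wt, and MYB36 with 13.8 ± 0.494 FPKM in lon1-1 and 12.8 ± 1.08 FPKM in wt. The part of root cell types in the fall of CYP86A1 and CYP86B1 was not tested.

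Hormone P450s outside jasmonate moved in both directions. CYP88A3, an ent-kaurenoic acid oxidase of gibberellin synthesis, had 5.02, 5.17 and 4.83 FPKM in lon1-1 and 3.67, 3.34 and 3.79 FPKM in wt, and rose without overlap (log2 fold change 0.39 ± 0.06 SE, limma adjusted p = 0.000228). CYP714A1, which inactivates gibberellins, had 10.68, 9.93 and 9.97 FPKM in lon1-1 and 16.97, 17.70 and 16.92 FPKM in wt, and fell without overlap (log2 fold change -0.70 ± 0.04 SE, limma adjusted p = 3.37e-07). The synthesis gene rose and the inactivating gene fell, while 2 other P450s of the synthesis pathway, GA3 and KAO2, which are not members, moved in opposite directions. GA3 averaged 9.04 ± 0.705 FPKM in lon1-1 and 7.08 ± 0.381 FPKM in wt (log2 fold change 0.31). KAO2 averaged 5.77 ± 0.215 FPKM in lon1-1 and 6.88 ± 0.649 FPKM in wt (log2 fold change -0.22). CYP735A2, which makes trans-zeatin cytokinins, rose to 14.5 ± 0.484 FPKM in lon1-1, against 11.1 ± 0.491 FPKM in wt (log2 fold change 0.36), and CYP707A3, which breaks down abscisic acid, fell to 23.9 ± 1.12 FPKM in lon1-1, against 27.9 ± 1.23 FPKM in wt (log2 fold change -0.21). CYP72C1, which lowers brassinosteroid levels, had 45.7 ± 1.19 FPKM in lon1-1 and 41.7 ± 0.559 FPKM in wt (log2 fold change 0.13, limma adjusted p = 0.00483), and its call was lost under median-ratio scaling (log2 fold change 0.056, limma adjusted p = 0.145). The strigolactone enzyme CYP711A1 and the brassinosteroid enzyme CYP90D1 did not pass, at 19.4 ± 0.522 and 3.59 ± 0.125 FPKM in lon1-1, against 18.3 ± 1.13 and 3.61 ± 0.261 FPKM in wt. CYP714A2, which acts on gibberellins, CYP735A1, a relative of CYP735A2, and CYP707A4, a relative of CYP707A3, were too low to test.

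Lignin P450s were abundant and changed little. CYP98A3, the coumaroyl ester 3′-hydroxylase, had 83.23, 80.09 and 82.35 FPKM in lon1-1, against 69.19, 65.02 and 67.88 FPKM in wt. All lon1-1 libraries were above the wt libraries (1.22-fold, log2 fold change 0.28 ± 0.03 SE, limma adjusted p = 3.64e-05). C4H, the cinnamate 4-hydroxylase, and FAH1, the ferulate 5-hydroxylase, are P450s that the description rule did not catch. C4H averaged 254.4 ± 9.73 FPKM in lon1-1 and 242.1 ± 2.08 FPKM in wt and did not pass the threshold (limma adjusted p = 0.0866). FAH1 averaged 33.4 ± 0.175 FPKM in lon1-1 and 31.0 ± 0.875 FPKM in wt (log2 fold change 0.11, limma adjusted p = 0.0151). CYP84A4, of arabidopyrone synthesis, had 3.83 ± 0.0404 FPKM in lon1-1 and 3.68 ± 0.309 FPKM in wt and did not pass. CYP98A8, a relative of CYP98A3, was listed at 0 in all lon1-1 libraries and at 0.02 FPKM or less in wt. Of 13 tested enzymes of the lignin pathway that are not P450s, 8 rose and 4 fell, beside 44.7% and 32.3% of all tested genes. Among these enzymes was the alcohol dehydrogenase CAD4, at 49.4 ± 2.0 FPKM in lon1-1 and 30.9 ± 1.3 FPKM in wt. PAL4, a phenylalanine ammonia-lyase, stood at 21.1 ± 0.501 FPKM in lon1-1 and 39.8 ± 1.22 FPKM in wt.

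The CYP78A genes, which promote organ and seed growth, changed in opposite directions. CYP78A7 had 12.15, 11.98 and 12.55 FPKM in lon1-1, against 4.32, 4.53 and 4.63 FPKM in wt, and rose 2.72-fold (log2 fold change 1.27 ± 0.05 SE, limma adjusted p = 9.92e-09). CYP78A6, a seed size gene, had 1.65, 1.68 and 1.70 FPKM in lon1-1, against 4.56, 4.46 and 5.65 FPKM in wt, and fell 2.92-fold (log2 fold change -1.13 ± 0.08 SE, limma adjusted p = 8.08e-07). CYP78A5, also called KLUH, had 3.77, 3.83 and 3.23 FPKM in lon1-1 and 5.62, 5.52 and 5.83 FPKM in wt, and fell too (log2 fold change -0.53 ± 0.07 SE, limma adjusted p = 4.14e-05). In these 3 genes no lon1-1 library overlapped a wt library. CYP78A8 had 1.6 ± 0.182 FPKM in lon1-1 and 2.01 ± 0.400 FPKM in wt and did not pass (log2 fold change -0.21, limma adjusted p = 0.0886). CYP78A9 and CYP78A10 were too low to test.

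P450s of pigment metabolism and stress made up the remaining roles. CYP97A3, a carotene beta-ring hydroxylase of lutein synthesis, had 2.3 ± 0.312 FPKM in lon1-1 and 3.02 ± 0.165 FPKM in wt (log2 fold change -0.29, limma adjusted p = 0.00854), whereas its relative CYP97B3 stood at 7.83 ± 0.304 FPKM in lon1-1 and 7.81 ± 0.143 FPKM in wt. CYP89A9, which converts chlorophyll breakdown products, fell to 9.42 ± 0.586 FPKM in lon1-1, against 13.1 ± 0.532 FPKM in wt (log2 fold change -0.43). CYP82C4, which makes an iron-deficiency coumarin, was listed at 0 in all lon1-1 libraries and at 0.04, 0.16 and 0.05 FPKM in wt. CYP81D8, a gene induced by many stresses, had 11.18, 12.49 and 11.66 FPKM in lon1-1, against 7.69, 7.93 and 7.74 FPKM in wt. It rose 1.51-fold with all lon1-1 libraries above the wt libraries (log2 fold change 0.54 ± 0.05 SE, limma adjusted p = 5.48e-06). The related xenobiotic-responsive gene CYP81D11 had 9.88, 8.90 and 9.72 FPKM in lon1-1 and 9.57, 9.01 and 9.55 FPKM in wt, so its libraries overlapped (limma adjusted p = 0.788).

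NAC transcription factors of mitochondrial stress signalling are known to bind a mitochondrial dysfunction motif, searched here only in the form CTTGNNNNNCAAG. The region before CYP81D8 is shown because it was the only window among the 217 genes with this form. Other forms of the motif were not searched. The 300 bases at chr4:17571744-17572043 are read 5′ to 3′ on the minus strand from TAIR10.1 (RefSeq), and capitals mark that motif, the W-boxes and the G-box.
CYP81D8: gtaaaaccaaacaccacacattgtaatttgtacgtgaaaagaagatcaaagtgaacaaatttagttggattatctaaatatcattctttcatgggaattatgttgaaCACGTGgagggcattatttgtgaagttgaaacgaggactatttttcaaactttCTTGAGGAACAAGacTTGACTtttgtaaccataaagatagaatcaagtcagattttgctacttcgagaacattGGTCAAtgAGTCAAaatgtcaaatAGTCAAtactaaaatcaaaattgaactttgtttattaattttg
The mitochondrial dysfunction motif starts 140 bases before the gene start, the W-boxes start 125, 67, 59 and 43 bases before it, and the G-box starts 193 bases before it. Of the 300-base windows of all 27443 nuclear protein-coding genes, 0.86% held the mitochondrial dysfunction motif in the form searched. The form was found in 1 of 46 P450 genes that rose and 0 of 61 that fell. The G-box was found in 5 of 46 windows of genes that rose (10.9%) and 1 of 61 of genes that fell (1.64%), with 3 of 24 that did not pass the threshold (12.5%), 4 of 86 not tested (4.65%) and 7.09% of all genes. A W-box of either ending was found in 13 of 46 genes that rose (28.3%) and 26 of 61 that fell (42.6%). It was found in 7 of 24 that did not pass the threshold (29.2%), 27 of 86 not tested (31.4%) and 32.3% of all genes. Genes that fell and carry a W-box include CYP710A1, CYP706A1, CYP81F2, CYP71B3 and CYP94B1. Genes that rose and carry a W-box include CYP96A3, CYP71A16, CYP71B10 and CYP81D8. The motifs were searched on both strands and may overlap one another. These are letter matches in a window and not binding sites, and no test was made of the shares.

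**Figure D3:**
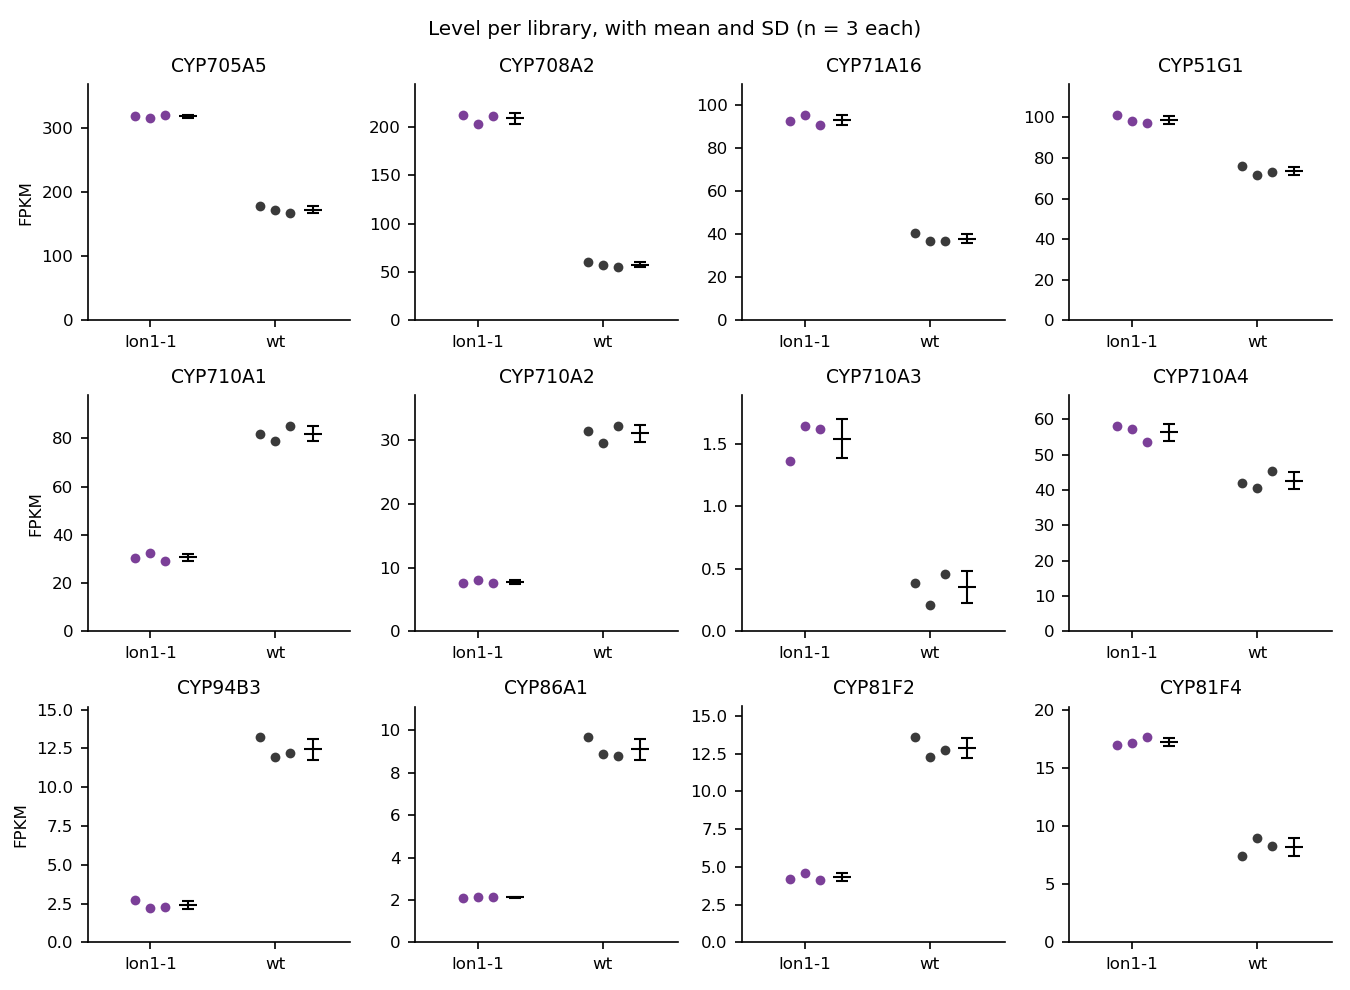
FPKM of 12 P450 genes in each library (points) with mean and SD beside them (n = 3 each), lon1-1 left and wt right, every axis starting at 0. CYP705A5, CYP708A2, CYP71A16, CYP51G1, CYP710A3, CYP710A4 and CYP81F4 are higher in every lon1-1 library, and CYP710A1, CYP710A2, CYP94B3, CYP86A1 and CYP81F2 are lower in every lon1-1 library.

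Several of the largest changes fell on P450s outside the role lists. CYP96A3 had 11.30, 10.05 and 9.96 FPKM in lon1-1, against 1.5, 1.5 and 1.51 FPKM in wt. It had the largest log2 fold change of all tested P450 genes, 2.19 ± 0.06 SE (6.94-fold, limma adjusted p = 1.37e-09). CYP96A11 had 6.59, 6.16 and 7.0 FPKM in lon1-1, against 0.93, 0.74 and 0.87 FPKM in wt, and was 7.78-fold higher in lon1-1 (log2 fold change 2.04 ± 0.07 SE, limma adjusted p = 4.93e-09). Both belong to the family of the wax alkane hydroxylase CYP96A15, which was itself near 0. Of the pair, CYP96A11 was tested only through its lon1-1 level. CYP96A5, the most abundant gene of this family, fell to 16.9 ± 0.222 FPKM in lon1-1, against 21.7 ± 1.26 FPKM in wt (log2 fold change -0.33).

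CYP87A2 had 16.86, 16.36 and 16.02 FPKM in lon1-1, against 4.91, 4.61 and 4.54 FPKM in wt (log2 fold change 1.62 ± 0.05 SE, limma adjusted p = 1.90e-09). CYP71A27 had 6.56, 7.32 and 6.69 FPKM in lon1-1, against 1.81, 1.62 and 1.69 FPKM in wt (log2 fold change 1.54 ± 0.06 SE, limma adjusted p = 1.63e-08). CYP77B1, a relative of the cutin enzymes of the CYP77A group, had 21.20, 21.53 and 21.22 FPKM in lon1-1, against 6.50, 7.86 and 8.42 FPKM in wt (log2 fold change 1.38 ± 0.07 SE, limma adjusted p = 1.05e-07). In all 3 genes the lowest lon1-1 library exceeded the highest wt library more than 2-fold. CYP716A1, which oxidises amyrin-type triterpenes, had 2.58, 2.22 and 2.24 FPKM in lon1-1, against 0.42, 0.28 and 0.26 FPKM in wt, a 7.33-fold rise with no overlap (log2 fold change 1.34 ± 0.08 SE, limma adjusted p = 2.29e-07). Its relative CYP716A2, named after its values were seen, had 1.48, 1.2 and 1.3 FPKM in lon1-1 and 0.07, 0.07 and 0.04 FPKM in wt. Both CYP716 genes reached 1 FPKM in lon1-1 libraries alone, so their being tested depended on the high lon1-1 level.

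On the falling side, CYP706A1 had 15.07, 15.93 and 15.53 FPKM in lon1-1, against 49.36, 47.83 and 47.46 FPKM in wt. Its groups were 3.11-fold apart in the mean (log2 fold change -1.58 ± 0.04 SE, limma adjusted p = 3.20e-10). Its neighbour CYP706A2, named here because its coding sequence is 98.1% identical to that of CYP706A1, fell to 5.99 ± 0.591 FPKM in lon1-1, against 13.4 ± 0.384 FPKM in wt, and reads of the pair could have been divided between them in either direction. CYP71B20 had 0.86, 0.53 and 0.59 FPKM in lon1-1, against 3.75, 4.29 and 3.96 FPKM in wt (6.06-fold lower, log2 fold change -1.59 ± 0.09 SE, limma adjusted p = 1.20e-07). It is 96.2% identical to CYP71B19, which fell as well, to 2.21 ± 0.142 FPKM in lon1-1, against 4.32 ± 0.107 FPKM in wt. CYP71B3 had 1.21, 1.01 and 1.20 FPKM in lon1-1, against 4.84, 4.66 and 3.99 FPKM in wt (log2 fold change -1.36 ± 0.08 SE, limma adjusted p = 1.78e-07). CYP71B35 had 0.12, 0.46 and 0.46 FPKM in lon1-1, against 2.43, 2.05 and 1.67 FPKM in wt (log2 fold change -1.18 ± 0.13 SE, limma adjusted p = 1.38e-05). None of these genes had a lon1-1 library that reached the wt range, but CYP71B20 and CYP71B35 were tested only through their wt levels. Smaller falls were those of CYP71B7, with 64.1 ± 2.77 FPKM in lon1-1 and 80.6 ± 2.90 FPKM in wt, and CYP81K1, with 12.6 ± 0.638 FPKM in lon1-1 and 16.9 ± 0.215 FPKM in wt.

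Many P450 genes stand next to relatives, and 66 of the 217 lie in 11 runs with gene starts at most 20 kb apart and at least 3 tested genes. In the run at chr3:9551812-9599988, from CYP86C2 to CYP71B24, all 5 tested genes fell, by log2 fold changes between -1.59 and -0.15, but CYP86C2 and CYP71B20 were tested only through their wt levels. The run at chr3:9630128-9648658 had 3 genes that fell, CYP71B26, CYP71B34 and CYP71B35, and 1 at its end that rose, CYP71B37, at 7.53 ± 0.525 FPKM in lon1-1 and 5.60 ± 0.331 FPKM in wt. Of the 6 tested CYP72A genes at chr3:4912324-4939871, 5 fell, and the first, CYP72A7, rose to 39.5 ± 0.291 FPKM in lon1-1, against 28.02 ± 0.121 FPKM in wt. In the CYP81 run at chr4:17555899-17598958, the 3 called genes at one end, CYP81H1, CYP81D5 and CYP81D4, fell, and the 4 at the other, CYP81D8, CYP81F3, CYP81F4 and CYP81F1, rose. At chr5:23187840-23200318, CYP81F2 fell and CYP71B10 rose, with 5.04 ± 0.189 FPKM in lon1-1 and 1.63 ± 0.231 FPKM in wt. CYP71B35, CYP72A8 and CYP81H1 were also tested only through their wt levels, and CYP81F1 only through its lon1-1 level. Genes of these runs were named for their place after their values were seen, neighbours share sequence, and no test of shared direction was made.

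**Figure D4:**
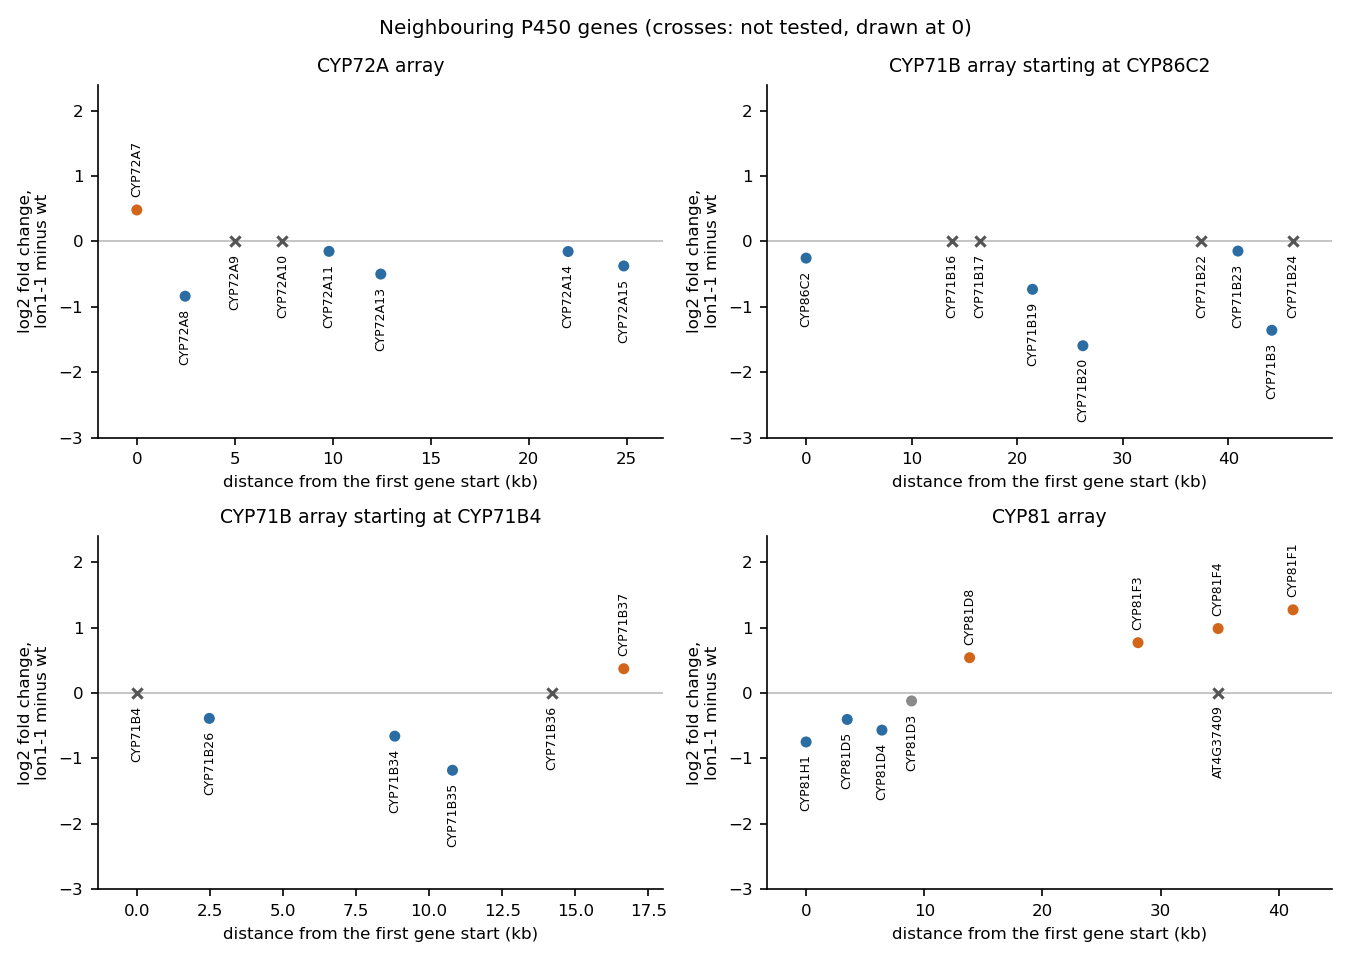
Log2 fold change (lon1-1 minus wt, log2(FPKM + 1) scale) of P450 genes in 4 runs of neighbours, by distance in kb from the start of the first gene (orange, rose; blue, fell; grey, not past the threshold; crosses, not tested and drawn at 0). The run from CYP86C2 to CYP71B24 has all 5 tested genes below 0, and the CYP81 run has genes below 0 at its left end and above 0 at its right end. CYP86C2, CYP71B20, CYP71B35, CYP72A8 and CYP81H1 were tested only through their wt levels, and CYP81F1 only through its lon1-1 level.

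A further 86 P450 genes stayed under the level needed for the test. Of these, 48 had a mean under 0.1 FPKM over the 6 libraries and 38 a higher one, none of them above 0.897 FPKM, and none was at 0 in every library. CYP71B24, the last gene of the run from CYP86C2, had 0.03, 0.05 and 0.05 FPKM in lon1-1, against 1.12, 1.23 and 0.93 FPKM in wt. CYP71B12 had 0.15, 0.16 and 0.12 FPKM in lon1-1, against 1.13, 0.92 and 1.16 FPKM in wt. Both were named after their values were seen and are among 17 untested genes whose lon1-1 libraries all lay below the wt libraries, while in 10 others they all lay above. The share of such genes among all untested genes was not worked out, so these counts cannot be set against a background. Of the families, CYP71 had 19 genes that were not tested, CYP76 had 6 of 7 and CYP96 had 5 of 12.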

How the data were processed

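RNA of 3 lon1-1 and 3 wt libraries of dark-grown seedlings was measured by stranded sequencing after ribosomal RNA removal, per the labels' protocols. The authors deposited FPKM per gene and library, written to 2 decimals; the submitters' processing notes name HISAT2, Bowtie2, RSEM and the TAIR10 build, with no versions. From these FPKM values, log2(FPKM + 1) was fitted with limma 3.58.1 in R 4.3.3 (empirical Bayes with a mean-variance trend), and genotype was the sole factor. A gene entered the test when 3 or more libraries reached 1 FPKM, which 18308 genes did, and Benjamini-Hochberg adjustment ran over all of these with a threshold of 0.05. Fold changes include the added 1 and so understate changes of low genes, while ratios are of mean FPKM. The script was tested on simulated data. Groups come from the sample titles.

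The table gives no fragment counts. Depth was read from the spacing of low values, after taking 180 bases off each transcript length, and came to 32250000 to 35250000 fragments per library. Of the low values, 95.2% to 97.7% per library came within 0.15 of a whole fragment, but depth and offset were chosen to make them whole, so this is no independent check. How reads shared by near-identical genes were divided is not given in the sources used here, and 8 P450 genes have a coding sequence at least 95% identical to another gene over at least 500 bases (blastn 2.17.0). Positions, symbols and upstream windows come from RefSeq TAIR10.1, and CYP98A9, CYP704B1, CYP76C3 and CYP71B31 were not analysed here.

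The members, role lists and tests were chosen with earlier results of these data known. Named genes are all members of the role lists, and the 10 largest rises and the 10 largest falls past the threshold. They also include the most abundant gene of each family with at least 5 tested genes, and the largest rise and fall of each list of other genes. Most genes outside this rule are said to be so where they appear. Others, such as SCR, MYB36, NRP1, VAP27-1, CYP71B19 and CYP702A5, are also outside it. Alternatives were other pseudocounts, filters and scalings, the replicate letter as a block, limma's treat test against a 1.5-fold change, and each library left out in turn. Restricting the set to CYP-numbered genes, or leaving out near-identical genes, was chosen after seeing the data.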

Additional observations from a re-analysis of the deposited data

How the results depend on the processing

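More P450 genes fell (61) than rose (46) as reported, and in every setting run except the treat test. Rescaling gave 44 and 65 (median-ratio) or 46 and 63 (upper-quartile), no filter on low values 56 and 73 of 217, pseudocounts of 0.1 and 0.5 each 46 and 61, only genes with a CYP number 39 and 59, and without near-identical genes 44 and 57. A filter of 5 FPKM left 89 genes, of which 35 rose and 40 fell. Against a fold of 1.5, limma's treat test called 2933 of all genes, 19 P450 genes that rose and 17 that fell, as its stricter null implies. Leaving out 1 library at a time gave 13473 to 13696 of all genes called, 46 to 47 P450 genes that rose and 56 to 60 that fell. The replicate letters did not pair the libraries, since residuals of same-lettered libraries correlated at 0.06, 0.02 and -0.03, and with the letter as a replicate block 14046 of all genes were called, against 14104 without it, with 48 P450 genes that rose and 61 that fell. Leaving out proteins at least 90% identical was not run.

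None of the 47 named genes past the threshold changed direction in any setting. Reversals touched 5 genes that did not pass the threshold, and their cause was not tested. CYP86A4 (0.04 as reported) gave -0.027 and CYP84A4 (0.05) -0.0090 under median-ratio scaling. CYP81D11 (0.02) gave -0.051 and -0.014 under median-ratio and upper-quartile scaling, -0.0100 without lon1-1 A, -0.0094 without wt B, and a range of -0.0100 to 0.058 over all single libraries left out. CYP97B3 (0.0034) gave -0.063 and -0.026 under these scalings, -0.025 without lon1-1 B, -0.0095 without wt C, and a range of -0.025 to 0.020. CYP90D1 (-0.0072) gave 0.0064 without lon1-1 B, 0.0016 without lon1-1 C and 0.039 without wt A, within a range of -0.037 to 0.039. CYP78A8 (-0.21) passed the threshold under median-ratio scaling (-0.25) and without wt B (-0.29), while without wt C it was -0.10 (limma adjusted p = 0.324).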

Other observations

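Of the 10 genes that carry the words cytochrome P450 without being named as one first, all 5 that could be tested rose. Of all tested genes, 44.7% rose, and no test of the difference was made. NRP1, a nucleosome assembly protein, had 43.04, 40.62 and 41.05 FPKM in lon1-1, against 20.39, 19.84 and 20.25 FPKM in wt (log2 fold change 1.01 ± 0.04 SE, limma adjusted p = 5.71e-09). VAP27-1, a protein of contact sites between the endoplasmic reticulum and other membranes, averaged 157.2 FPKM in lon1-1 and 140.8 FPKM in wt. These genes are counted among the 46 that rose, and without all genes that lack a CYP number 39 rose and 59 fell.

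CYP82F1, the most abundant gene of its family, was in none of the role lists and was picked out after its values were seen. It had 51.83, 51.27 and 50.48 FPKM in lon1-1, against 34.35, 35.72 and 35.64 FPKM in wt (log2 fold change 0.53 ± 0.03 SE, limma adjusted p = 2.42e-07). CYP702A5, in the same run of neighbours on chromosome 4 as the arabidiol gene CYP705A1, rose to 15.8 ± 0.271 FPKM in lon1-1, against 9.62 ± 1.01 FPKM in wt, whereas CYP705A1 and CYP705A4 of the same run fell.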
